A study of Mus musculus with 2 samples.

Results

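Type I interferon-stimulated genes were followed in MC38 tumours as a set of 38 genes: the Ifit, Oas, Mx, Slfn and Ifi200 families together with Isg15, Usp18, Rsad2, Cmpk2, Bst2, the RNA sensors Ifih1, Dhx58 and Eif2ak2, the transcription factors Stat2 and Irf9, and other genes switched on by interferon alpha and beta. Members were taken from a list of gene names, which used no value of these samples but was drawn up with earlier results of them known, and matched to the gene symbols of the count matrices. All 38 were found among the 34290 genes listed there. Values are unique molecular identifiers (UMIs, each standing for 1 captured RNA molecule), summed over the cells of a library or of a cell class and divided by all UMIs of those cells, as counts per 1000000 UMIs (CPM).

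Type I interferons are small secreted proteins that cells release after sensing nucleic acid in the wrong place. They bind a receptor made of Ifnar1 and Ifnar2, whose kinases Jak1 and Tyk2 phosphorylate Stat2. Stat2 and Irf9 are subunits of ISGF3, a complex that binds the interferon-stimulated response element in the promoters of target genes. In tumours, macrophages and dendritic cells are known as sources of and responders to interferon beta, and the response in them is linked to the priming of CD8 T cells.

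MC38 is a mouse colorectal cancer cell line that is transplanted into mice. The study engrafted MC38 cells carrying a vector control, or MC38 cells lacking TMEM16F (TMEM16F KO), and took tumours at day 21 from mice that had no treatment. TMEM16F, encoded by Ano6, is a calcium-activated scramblase that moves phosphatidylserine to the outer leaflet of the plasma membrane. The deletion is in the engrafted tumour cells and not in the cells of the mouse, each condition was 1 droplet library with 3′ UMI counting, and the labels do not say how many mice contributed.

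With 1 library per condition there is no measure of the spread between tumours and no test was possible. Intervals are 95% intervals of counting error only, and they are too narrow where a few cells hold most of the UMIs. The vector control library held 5253 barcodes and 46338994 UMIs, and the TMEM16F KO library 5993 and 49777630. After filtering, 5028 and 5688 cells remained, with medians of 6019.5 and 5995 UMIs. The study states 10782 cells of 14 cell types, beside 11246 barcodes in the matrices and 10716 cells kept here. The libraries had 10 barcodes in common, 8 of them among kept cells. Cell classes were rebuilt here from marker genes and are ranges of a score: 1238 kept cells (11.6%) lay within 0.05 of a lineage cut, and 1056 of 6292 phagocytes (16.8%) within 0.05 of a cut between macrophage-like, intermediate and monocyte-like cells. Another 458 control cells (9.11%) and 593 KO cells (10.4%) were left unassigned. One cluster (cluster 7) had a median of only 1053 UMIs and held 525 control cells and 84 KO cells. Ano6 was present at 28.7 CPM in the control and 33.3 CPM in the KO library. In stroma-like cells it was at 66.1 and 45.4 CPM (KO over control 0.688, 0.449 to 1.02). Neither checks the deletion: most cells here are immune cells of the host, and 3′ tags may lie outside the deleted part. Tumour cells could not be set apart: 5 of 6 epithelial candidate markers were at 0 in the stroma-like cells of each library. Whether the stroma-like class holds engrafted cells is therefore not known.

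The response element was looked for in the promoters of the set, because it is the sequence through which ISGF3 acts. Promoters were the 300 bases from 250 before to 50 after each transcription start in RefSeq, build GRCm38.p6, and the letters GAAA, any 2 bases, then GAAA were searched on both strands with overlapping matches allowed. Of the 38 genes, 29 had an entry and 15 of those (51.7%) held a match, against 1079 of 27025 genes in the table (3.99%). The genes without an entry were Oas2, Mx1, Mx2, Usp18, Rtp4, Dhx58, Parp14, Parp9 and Ifi204. The stretches around the matches are shown for 7 genes that recur in the results below, each 5′ to 3′ on the strand of its gene, upstream of the start, with matches in capitals. TTTC, any 2 bases, then TTTC is the same element on the opposite strand.
Isg15, chr4:156200850-156200921, minus strand: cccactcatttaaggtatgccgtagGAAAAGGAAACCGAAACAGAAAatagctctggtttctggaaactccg
Ifit1, chr19:34640760-34640838, plus strand: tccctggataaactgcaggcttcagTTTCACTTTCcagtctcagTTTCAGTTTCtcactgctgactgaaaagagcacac
Ifit3, chr19:34583348-34583441, plus strand: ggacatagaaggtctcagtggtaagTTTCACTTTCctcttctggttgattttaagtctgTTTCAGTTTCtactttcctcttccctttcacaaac
Ifit3b, chr19:34607744-34607837, plus strand: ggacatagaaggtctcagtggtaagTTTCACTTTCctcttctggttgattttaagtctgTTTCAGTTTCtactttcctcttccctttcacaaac
Rsad2, chr12:26456538-26456597, minus strand: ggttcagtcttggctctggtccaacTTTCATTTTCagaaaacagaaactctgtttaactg
Bst2, chr8:71537562-71537627, minus strand: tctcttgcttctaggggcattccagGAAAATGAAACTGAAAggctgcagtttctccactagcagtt
Slfn5, chr11:82951922-82951981, plus strand: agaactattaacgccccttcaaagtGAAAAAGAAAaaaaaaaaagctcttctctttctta

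Isg15 carried 3 overlapping matches in a row, in a stretch 103 to 31 bases before its start, and Bst2 a pair that overlap. Ifit1 had a pair of separate matches on the opposite strand. Ifit3 and its neighbour Ifit3b had identical letters over the 94 bases shown, and their transcripts are near-identical too, so the split of reads between them is uncertain. All 4 Ifit genes lie side by side on chromosome 19, from 34550694 to 34650009. No match was found in 14 genes, among them Ifit2, Oasl1, Oasl2, Cmpk2, Ifi44 and Lgals3bp, which says only that these letters are not in this window.

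Over all cells, most of the 38 genes were higher in the TMEM16F KO library, by a modest amount. Their summed level was 2134 CPM in the vector control and 2632 CPM in the TMEM16F KO library, a ratio of 1.23 (1.22 to 1.24), where ratios are KO over control throughout. Higher in the KO library were 36 of the 38, beside 53.0% of all measured genes, and 34 had an interval above 1, beside 25.1%. The median log2 ratio was 0.37, beside 0.02 over all 16051 genes with at least 20 UMIs. At least 1.5-fold higher, with the interval on that side of 1, were 7 genes (Ifi44, Oas2, Cmpk2, Usp18, Ifit3b, Slfn5 and Herc6) and none was lower by that much, where 5.49% of all measured genes were past this fold upward and 6.57% downward.

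Because 3′ counting tags each molecule once, levels may be compared between genes without scaling for length. Bst2, which encodes tetherin and holds budding virus at the cell surface, was the most abundant of the set at 441 CPM in the control and 552 CPM in the KO library (ratio 1.25). Isg15, a ubiquitin-like protein attached to other proteins, followed with 414 and 475 CPM (ratio 1.15, 1.13 to 1.17). These genes alone held 20.7% and 19.4% of the set's UMIs in the control and 21.0% and 18.1% in the KO library, so a summed level is weighted towards them. Rsad2, which encodes viperin, was at 89.4 and 114 CPM. Ifih1 and Ifit1 were the only genes of the set lower in the KO library, with 98.0 against 89.4 CPM for Ifih1 (ratio 0.913) and 75.4 against 72.0 CPM for Ifit1 (ratio 0.955, 0.909 to 1.0). For Ifih1 the direction depends on the weighting: as a mean over cells that counts every cell alike, its ratio was 1.07.

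By cell class the summed level was highest in small classes. Neutrophil-like cells (22 control and 46 KO cells) had 7491 and 7766 CPM and plasmacytoid dendritic cell-like (pDC-like) cells (17 and 22) had 6154 and 6470 CPM, with too few cells to compare the libraries. In the pDC-like cells Bst2, long used as a surface marker of that lineage, made up most of the sum, at 5241 and 4398 CPM. In neutrophil-like cells Isg15 was at 2853 and 2229 CPM and Rsad2 at 671 and 871 CPM. For 14 of the 38 genes the neutrophil-like class had the highest level in both libraries. Among these, Ifit3b, Oas2, Oas3, Cmpk2 and Herc6 had too few UMIs there to count as measured. Oas2, for example, had 2 control and 4 KO UMIs, and Cmpk2 and Herc6 each had 6 in either library. The matching share over all genes was not computed, so the count has no background to be read against. Among the 9 classes compared, which had 50 or more cells in both libraries, the order differed between libraries. In the control, other T-like cells led with 3000 CPM and dendritic cell-like (DC-like) cells had 2440, whereas macrophage-like, Treg-like, NK-like and monocyte-like cells lay together between 2183 and 2305 CPM. In the KO library monocyte-like cells led with 3301 CPM, and DC-like, intermediate phagocyte-like and macrophage-like cells lay between 2749 and 2911 CPM. CD8 T-like cells were low in both, with 1124 and 1306 CPM, as were the 18 and 16 B-like cells with 1227 and 1283 CPM. No class lacked these RNAs, so free RNA in the droplets could not be gauged from a class that should have none.

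**Figure D1:**
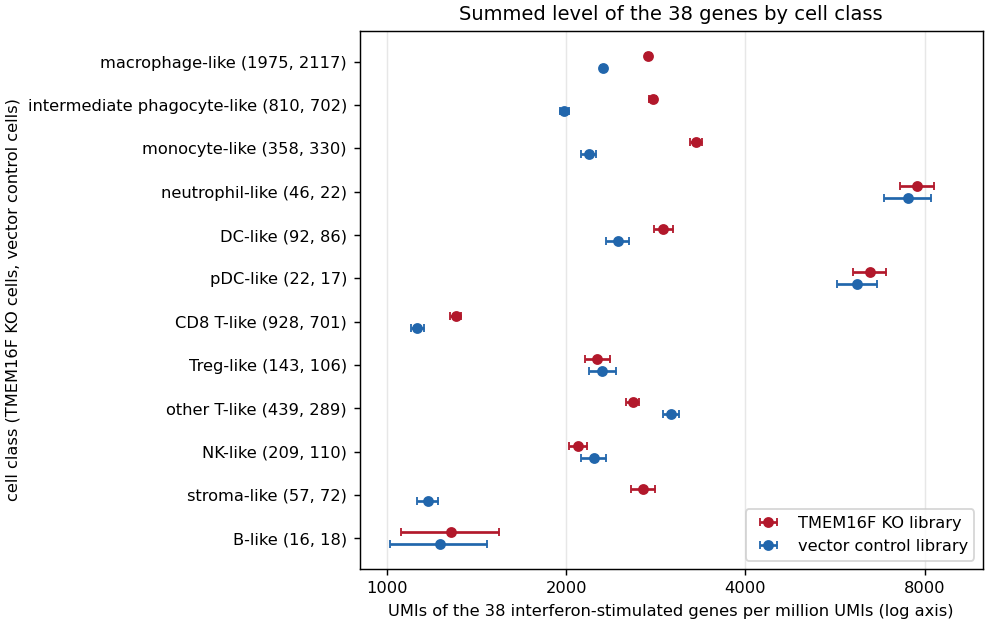
Summed level of the 38 interferon-stimulated genes (CPM) by cell class in the vector control and TMEM16F KO libraries, with 95% Poisson intervals of counting error and 1 library per condition. KO values lie above control values in all 3 phagocyte classes, and below them in other T-like cells (2586 against 3000 CPM).

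Macrophage-like cells, the largest class, showed a broad but small difference. The summed level was 2305 CPM in 2117 control cells and 2749 CPM in 1975 KO cells (ratio 1.19, 1.18 to 1.21). All 38 genes were measured, 36 were higher in the KO library, beside 51.8% of all measured genes, 30 had an interval above 1, beside 21.1%, and the median log2 ratio was 0.37 beside 0.02 over all 13179 measured genes. The 1.5-fold mark was passed by 6 genes upward (Ifi44, Oas2, Slfn5, Ifit3b, Ifi205 and Usp18) and by none downward, against 5.96% and 4.98% of all measured genes. That count is sensitive to processing: it was 14 when every cell counted alike, 3 with classes taken from clusters, and 3 with mitochondrial, ribosomal protein and haemoglobin genes left out of the total. Here and in the classes below, the share of all genes past the mark was computed for the main setting only. Counts under other settings therefore have no background to be read against.

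Among the macrophage-like values, Ifi44, an antiviral protein of uncertain mechanism, had the largest ratio among the 38: 3.87 CPM in the control and 8.57 CPM in the KO library (ratio 2.22, 1.69 to 2.92), from 81 UMIs in 61 cells and 180 UMIs in 137 cells. Slfn5, of the Schlafen family of growth and virus restriction factors, was at 30.3 and 49.1 CPM (ratio 1.62) and was seen in 326 control and 564 KO cells. Oas2, whose product makes the messenger that activates RNase L, was at 2.82 and 5.00 CPM (ratio 1.77). Oas2 UMIs were seen in 54 control and 97 KO cells, so these differences were not carried by a handful of cells. Usp18, the protease that removes Isg15 from proteins and a brake on the receptor, was at 11.3 and 17.1 CPM (ratio 1.52). Ifi205, an Ifi200 family gene with near-identical relatives, was at 41.1 and 62.8 CPM (ratio 1.53). Bst2 was at 569 and 744 CPM (ratio 1.31, 1.28 to 1.34), and the secreted glycoprotein Lgals3bp, at its highest in this class in both libraries, at 81.2 and 112 CPM (ratio 1.38). Isg15 was nearly level, at 398 and 415 CPM (ratio 1.04, 1.01 to 1.08).

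Ifih1 and Ifit1 went the other way in macrophage-like cells. Ifih1, the cytosolic sensor MDA5, was lower in the KO library, 124 against 86.5 CPM (ratio 0.698, 0.657 to 0.742), while Dhx58, its relative LGP2, had a ratio of 1.27 (1.12 to 1.45). Ifit1, which binds RNA lacking a host-type cap, was lower as well, 72.6 against 53.9 CPM (ratio 0.743, 0.687 to 0.803). Ifit2 (ratio 1.28), Ifit3 (ratio 1.21) and Ifit3b (ratio 1.54) were higher, so the 4 Ifit genes together came to 154 and 157 CPM (ratio 1.02, 0.971 to 1.07). The share of cells with an Ifih1 UMI went less far apart than the level: 11.8% of control and 11.3% of KO cells after thinning every cell to 2000 UMIs, and 27.2% and 32.6% without thinning. For Ifit1 the thinned shares were 9.70% and 7.94%.

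Intermediate phagocyte-like cells, which scored between macrophage and monocyte markers, showed a wider gap. The summed level was 1985 CPM in 702 control cells and 2794 CPM in 810 KO cells (ratio 1.41, 1.38 to 1.44). The median log2 ratio was 0.53 beside 0.06 over all measured genes. Of the 38 genes 36 were higher, beside 57.8% of all measured genes. The 1.5-fold mark was passed upward by 13 genes and downward by none, beside 6.65% and 3.3% of the 11165 measured genes. With classes taken from clusters the count was 20. Isg15 differed here, with 355 CPM in the control and 538 CPM in the KO library (ratio 1.52, 1.44 to 1.6). Cmpk2, a mitochondrial nucleotide kinase that lies next to Rsad2 on chromosome 12, was at 5.10 and 13.1 CPM (ratio 2.58, 1.7 to 4.0). Rtp4, a chaperone that also restricts viruses, was at 43.2 and 83.2 CPM (ratio 1.93), and Oasl2 at 32.7 and 60.7 CPM (ratio 1.86). Ifi44 was at 2.39 and 7.86 CPM, from 15 and 52 UMIs. Irf9 and Eif2ak2 were the genes of the set that were not higher, with ratios of 0.983 and 0.897 and intervals that include 1.

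Monocyte-like cells had the largest summed ratio of the phagocyte classes, with the widest gaps in the Ifit, Rsad2 and Mx genes. The summed level was 2183 CPM in 330 control cells and 3301 CPM in 358 KO cells (ratio 1.51, 1.46 to 1.57). Of 37 measured genes (Ifit3b was not measured), 36 were higher, beside 57.4% of all measured genes. The median log2 ratio was 0.64 beside 0.08 over all measured genes. The 1.5-fold mark was passed upward by 20 and downward by none, against 8.75% and 2.51% of the 8773 measured genes. Requiring at least 100 UMIs left 13 of them.

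The Ifit family in monocyte-like cells summed to 48.0 CPM in the control and 174 CPM in the KO library (ratio 3.62, 2.89 to 4.57). Ifit3 was at 15.2 and 66.1 CPM (ratio 4.35, 2.93 to 6.65) and Ifit1 at 12.7 and 45.2 CPM (ratio 3.55), each seen in 19 control cells and in 40 or 38 KO cells. Few cells carried these RNAs: the 10 highest cells held 71.0% of the Ifit3 UMIs in the control and 63.3% in the KO library. Rsad2 was at 45.6 and 174 CPM (ratio 3.81, 3.03 to 4.84), in 43 and 87 cells, and after thinning 7.38% of control and 16.5% of KO cells had a Rsad2 UMI. Mx1, a dynamin-like GTPase, was at 8.82 and 31.4 CPM (ratio 3.56), and Oasl1, an OAS-like protein without synthetase activity, at 32.3 and 107 CPM (ratio 3.32). Usp18 was at 7.84 and 24.3 CPM (ratio 3.09). By contrast Bst2 was at 390 and 435 CPM (ratio 1.12), the Schlafen genes together at 192 and 232 CPM (ratio 1.21) and Ifi204 with Ifi205 at 298 and 375 CPM (ratio 1.26). Ifi44 rested on 4 and 22 UMIs.

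**Figure D2:**
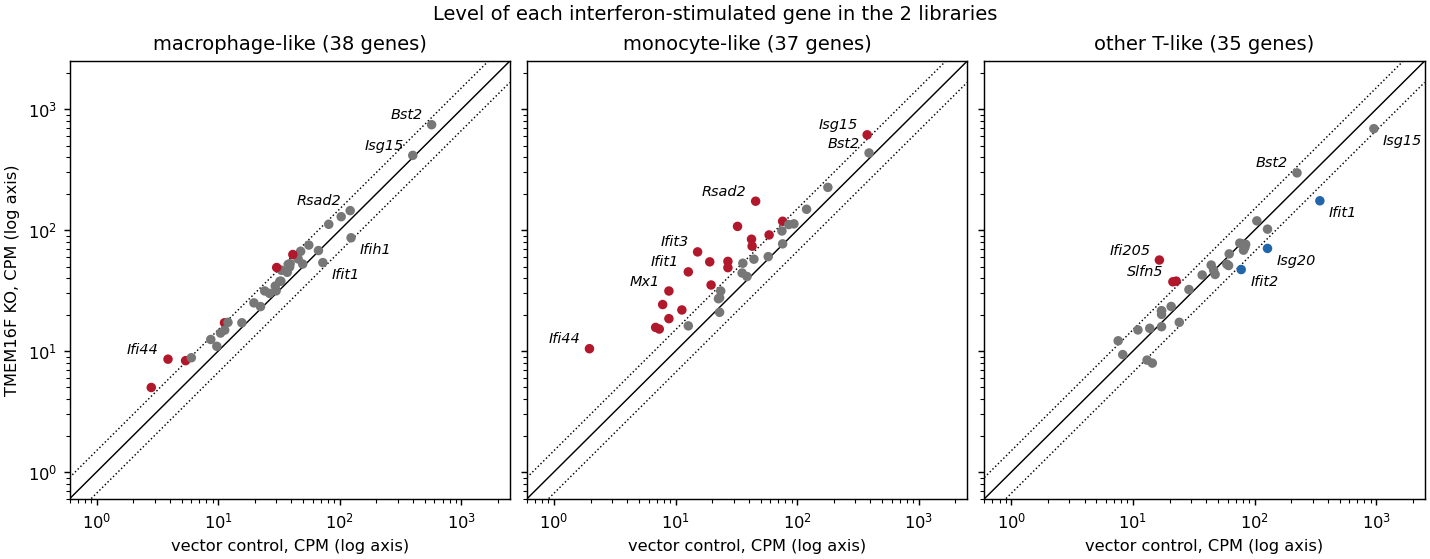
Level of each of the 38 genes (CPM, log axes) in the vector control library, horizontally, and the TMEM16F KO library, vertically, for macrophage-like, monocyte-like and other T-like cells. Dotted lines mark 1.5-fold, and coloured points are past it with their interval on the same side of 1: 6 genes in macrophage-like cells, 20 in monocyte-like cells, and 3 higher and 3 lower in other T-like cells.

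Across the 3 phagocyte classes, 37 genes were measured in all of them and 32 of those were higher in the KO library in each class, beside 33.1% of the 8759 genes measured in all 3. For 20 the interval lay above 1 in each class, beside 8.69%, and Ifi44 and Usp18 were past 1.5-fold in each, beside 1.13%. The 5 genes not higher throughout were Eif2ak2, Ifih1, Ifit1, Irf9 and Slfn8. Ifih1 and Ifit1 thus had opposite directions in macrophage-like and monocyte-like cells: for Ifih1 the monocyte-like ratio was 2.00 (1.54 to 2.62). Parp9 and Dtx3l, partners in an ADP-ribosylating ubiquitin ligase, had ratios above 1 in all 3 classes, but they overlap on opposite strands, and the labels do not say whether counting used strand. Mx2, annotated as a polymorphic pseudogene, was past 1.5-fold in the intermediate and monocyte-like classes, and its macrophage-like ratio was 1.09 (0.939 to 1.27).

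Other values moved with these differences. In macrophage-like cells the summed cycling markers were 412 CPM in the control and 203 CPM in the KO library, the neutrophil markers 140 and 237 CPM and the phagocyte markers 16700 and 23900 CPM. In monocyte-like cells cycling markers were at 84.2 and 43.3 CPM and neutrophil markers at 280 and 436 CPM, with 3 and 2 of 10 neutrophil markers at 0, and no marker of the monocyte or macrophage lists at 0. In intermediate cells cycling markers were at 177 and 101 CPM and neutrophil markers at 305 and 416 CPM. Their part in the result was not tested. The macrophage-like cells also came from different clusters, mainly clusters 0, 7 and 3 in the control and clusters 4, 3 and 0 in the KO library. Without the cells of the low-UMI cluster 7, a choice made after seeing the data, the summed ratios were 1.18 for macrophage-like, 1.40 for intermediate and 1.51 for monocyte-like cells.

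**Figure D3:**
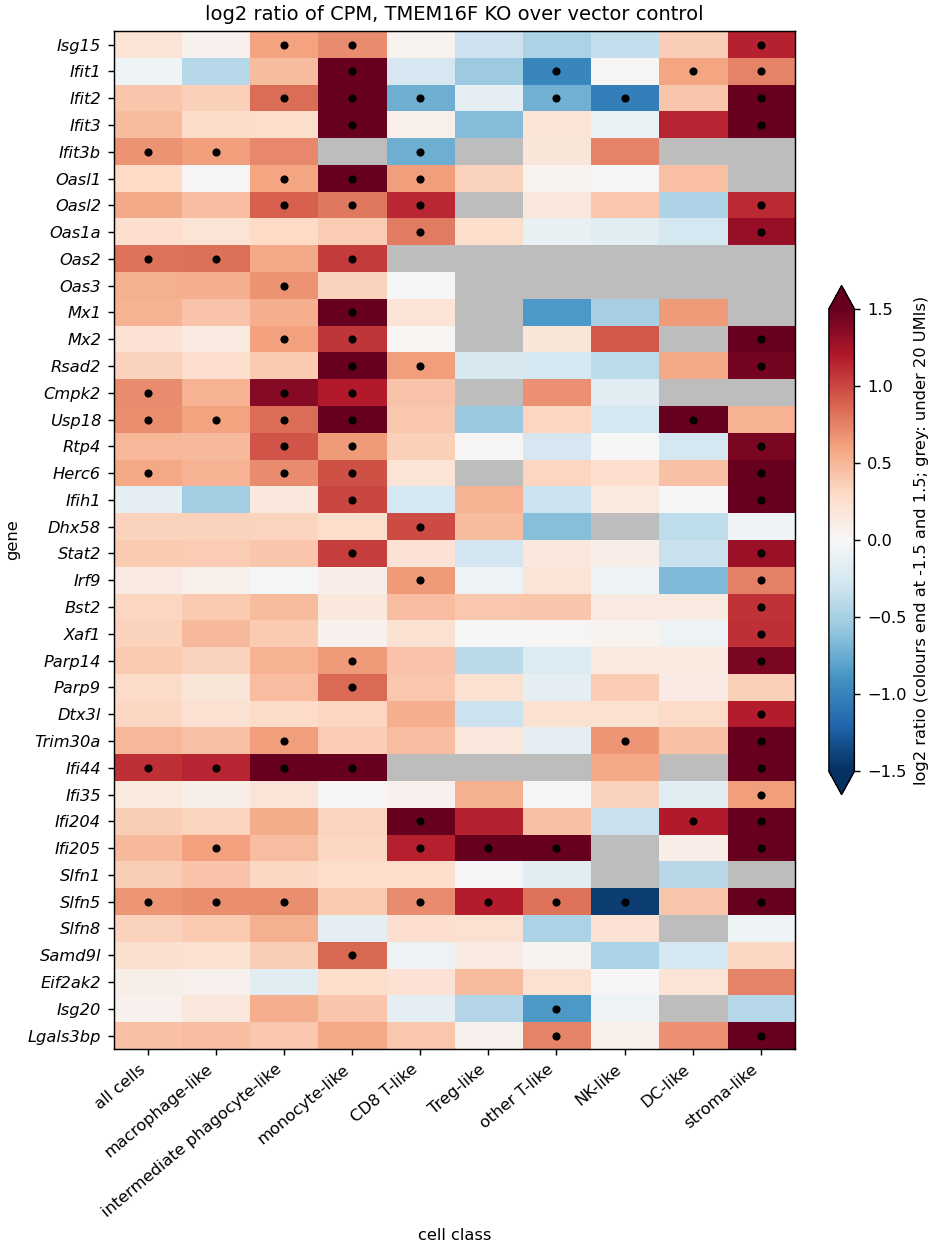
Log2 ratio of each of the 38 genes (rows), TMEM16F KO over vector control, in 9 cell classes (columns). A dot marks a ratio past 1.5-fold with its interval on the same side of 1, grey marks fewer than 20 UMIs and colours end at 1.5 in either direction; the monocyte-like column holds 20 dots, the NK-like column 1 upward and 2 downward.

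Across lymphocyte classes the summed ratios went in different directions. Of 26 genes measured in CD8 T-like, Treg-like, other T-like and NK-like cells, 4 were higher in the KO library in each class and 2 were lower in each, namely Ifit2 and the exonuclease gene Isg20, beside 13.8% and 11.8% of the 6212 genes measured in all 4, so these counts are near the background. Several lymphocyte values rested on single cells, so ratios were also computed without the cell that held most UMIs of the gene in each library, a choice made after seeing the data. That turned Ifit2 in Treg-like cells to 1.11 (0.458 to 2.79). In CD8 T-like cells the summed level was 1124 CPM in 701 control cells and 1306 CPM in 928 KO cells (ratio 1.16, 1.12 to 1.2). Of 36 measured genes (Oas2 and Ifi44 were not measured) 29 were higher, beside 48.0% of all measured genes. The median log2 ratio was 0.31 beside -0.01 over all measured genes. Upward past 1.5-fold were 9 genes and downward 2, against 5.25% and 4.83% of the 11201 measured genes. Counting every cell alike left 5 upward.

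Ifi204, an Ifi200 family DNA-binding protein, had the largest CD8 T-like ratio, 4.50 CPM in the control and 13.6 CPM in the KO library (3.02, 1.9 to 4.96), in 17 and 69 cells. Ifi205 was at 9.57 and 21.5 CPM (ratio 2.24, and 3.53 without the highest cell of each library), Oasl2 at 3.75 and 8.21 CPM (ratio 2.19) and Dhx58 at 5.07 and 9.95 CPM (interval of the ratio 1.23 to 3.21). Ifi204 was far more abundant in macrophage-like cells, with 103 and 129 CPM. In the same CD8 T-like cells the 11 macrophage markers summed to 618 CPM in the control and 1190 CPM in the KO library (ratio 1.93) and the 7 phagocyte markers to 746 and 1840 CPM (ratio 2.47), none of them at 0 in either library; their part in the result was not tested. Ifit2 and Ifit3b were lower, with 19.7 against 11.8 CPM and 10.5 against 6.32 CPM (both ratios 0.601). Ifit1 (52.7 against 44.4 CPM) and Ifih1 (62.5 against 52.1 CPM) were also lower, but Ifit1 turned to 1.07 when every cell counted alike and to 1.09 with a stricter assignment of cells, and Ifih1 to 1.10 with no doublets left out. Isg15 was at 259 and 269 CPM (ratio 1.04, 0.968 to 1.12).

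Other T-like cells, those T-like cells that met neither the CD8 nor the regulatory T cell rule, were led by Tnfrsf4 and Ikzf2 of the Treg marker list, with Cd4 among their first 10 genes. They were the compared class with the lowest summed ratio. The level was 3000 CPM in 289 control cells and 2586 CPM in 439 KO cells (ratio 0.862, 0.828 to 0.897). The genes did not shift as a block: of 35 measured (Oas2, Oas3 and Ifi44 were not), 19 were higher and 16 lower. Of all measured genes 52.0% were higher. The median log2 ratio was 0.04, beside 0.02 over all measured genes. Past 1.5-fold were 3 upward and 3 downward, against 5.51% and 4.1% of the 9151 measured genes. The lower sum came mainly from Isg15, at 957 CPM in the control and 690.2 CPM in the KO library (ratio 0.721, 0.67 to 0.776), and Ifit1, at 344 and 175 CPM (ratio 0.508, 0.443 to 0.582). After thinning, 28.8% of control and 21.6% of KO cells had an Ifit1 UMI, and 56.2% and 49.9% an Isg15 UMI. Isg20 was at 128 and 70.6 CPM (ratio 0.553) and Ifit2 at 77.7 and 47.2 CPM (ratio 0.608). For Ifit2, 1 control cell held 45 of 113 UMIs, the thinned shares of cells were 5.58% and 5.32%, and without the highest cells the ratio was 0.812 (0.581 to 1.14).

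This direction hangs on how the class is drawn. With classes taken from clusters the summed ratio of other T-like cells was 1.2, Isg15 was at 1.13 and Ifit1 at 1.05. Higher in the KO library were Ifi205, at 16.5 and 56.6 CPM (ratio 3.43, 2.2 to 5.56) with 88.4% of its KO UMIs in 10 cells, Slfn5 at 21.3 and 37.4 CPM, Lgals3bp at 22.7 and 37.9 CPM and Bst2 at 223 and 297 CPM. Markers of other cells moved in this class too: macrophage markers were at 787 CPM in the control and 1290 CPM in the KO library, phagocyte markers at 941 and 2090 CPM, stroma markers at 9.62 and 47.2 CPM and cycling markers at 489 and 253 CPM. None of the macrophage or phagocyte markers was at 0. Their part in the result was not tested.

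Treg-like cells had 2300 CPM in 106 control cells and 2256 CPM in 143 KO cells (ratio 0.981, 0.913 to 1.05). Of 29 measured genes 17 were higher and 12 lower, where 47.7% of all measured genes were higher. Past 1.5-fold were 2 upward and none downward, beside 3.44% and 4.24% of the 6563 measured genes. Not measured were Ifit3b, Oasl2, Oas2, Oas3, Mx1, Mx2, Cmpk2, Herc6 and Ifi44. Isg15 was at 600.1 and 482 CPM (ratio 0.804, 0.693 to 0.932), Ifit1 at 148 and 102 CPM (ratio 0.687) and Isg20 at 232 and 171 CPM (ratio 0.739), while Bst2 was higher, 282 against 373 CPM. In the control 1 cell held 59 of 360 Isg15 UMIs and 1 cell 27 of 89 Ifit1 UMIs, and without the highest cells the ratios were 0.884 (0.755 to 1.04) and 0.872 (0.609 to 1.25). Slfn5 was at 26.7 and 60.1 CPM (ratio 2.26). Ifi205 went from 2 UMIs in 2 cells to 31 UMIs in 6 cells (ratio 12.2, 3.09 to 105). With the stricter assignment of cells the upward count was 0. A minimum of 100 UMIs leaves both upward genes out before any ratio is read, since Slfn5 had 16 control and 46 KO UMIs. Macrophage markers were at 768 and 1310 CPM in these cells and cycling markers at 1020 and 724 CPM, with none at 0, and their part in the result was not tested.

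NK-like cells had 2225 CPM in 110 control cells and 2096 CPM in 209 KO cells (ratio 0.942, 0.887 to 1.0), and 1.13 when every cell counted alike. Of 33 measured genes 18 were higher and 15 lower, near the 54.8% of all measured genes that were higher. The median log2 ratio of 0.02 lay beside 0.06 over all measured genes. Past 1.5-fold were 1 upward and 2 downward, against 5.81% and 3.28% of the 7711 measured genes. Not measured were Oas2, Oas3, Dhx58, Ifi205 and Slfn1. Ifit2 was at 98.0 CPM in the control and 48.0 CPM in the KO library (ratio 0.489, 0.348 to 0.687), where 1 control cell held 23 of 73 UMIs and the ratio without the highest cells was 0.543. Slfn5 rested on 16 and 12 UMIs, with a ratio of 0.495 (0.185 to 1.32) without the highest cells. Isg15 was at 623 and 484 CPM (ratio 0.777), but 1.11 when every cell counted alike. Trim30a, a ubiquitin ligase with near-identical neighbours, was the upward gene, at 52.4 and 82.6 CPM (ratio 1.58, 1.09 to 2.32), and the count was 0 with no doublets left out. Cycling markers in these cells were at 459 and 147 CPM, macrophage markers at 508 and 856 CPM, and their part in the result was not tested.

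DC-like cells, a class led by genes of mature dendritic cells such as Ccr7 and Fscn1, had 2440 CPM in 86 control cells and 2911 CPM in 92 KO cells (ratio 1.19, 1.13 to 1.26). Of 30 measured genes 19 were higher and 11 lower, where 50.8% of all measured genes were higher. Past 1.5-fold were 3 upward and none downward, against 4.21% and 2.99% of the 6763 measured genes. The upward count ranged from 1 with at least 100 UMIs to 7 when every cell counted alike. Not measured were Ifit3b, Oas2, Oas3, Mx2, Cmpk2, Ifi44, Slfn8 and Isg20. Ifi205, at 439 and 471 CPM (ratio 1.07), had its highest level here in both libraries. Among the compared classes monocyte-like cells came next with 119.5 and 149 CPM, while the unassigned cells had 231 and 238.5 CPM. Isg15 was at 598 and 774 CPM (ratio 1.3, 1.16 to 1.45), Ifit1 at 75.6 and 114 CPM (ratio 1.51) and Ifi204 at 23.3 and 53.2 CPM (ratio 2.29, 1.35 to 4.03). Usp18 was at 15.1 and 43.5 CPM, but 1 KO cell held 19 of the 45 UMIs. In the KO library 1 cell also held 163 of 801 Isg15 UMIs and 1 cell 36 of 118 Ifit1 UMIs, and without the highest cell of each library the ratios were 1.19 (1.05 to 1.35) and 1.46 (1.0 to 2.14). Shares of cells with a UMI, without thinning, were 73.3% and 72.8% for Isg15 and 17.4% and 16.3% for Ifit1. The ISGF3 subunits Stat2 and Irf9 together were lower, 101 against 71.5 CPM (ratio 0.707, 0.511 to 0.975). Neither gene alone had an interval below 1 (Stat2 0.497 to 1.26, Irf9 0.395 to 1.0). Without the highest cell of each library their ratios were 0.861 (0.515 to 1.44) and 0.663 (0.402 to 1.09). Other families of the set were higher in the KO library: the Ifit genes (ratio 1.5, 1.19 to 1.91), the Mx genes (1.66, 1.05 to 2.69) and Rsad2 with Cmpk2 (1.65, 1.16 to 2.35). Isg15 with Usp18 and Herc6 also was (1.33, 1.2 to 1.49), and the remaining families had intervals that include 1. T cell markers in these cells were at 105 and 295 CPM, and their part in the result was not tested.

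Stroma-like cells, marked by collagens and Sparc, had the widest gap of the 9 compared classes. The summed level was 1172 CPM in 72 control cells and 2696 CPM in 57 KO cells (ratio 2.30, 2.16 to 2.45). Of 31 measured genes 28 were higher, beside 52.6% of all measured genes, and the median log2 ratio was 1.29 beside 0.04. Past 1.5-fold were 24 upward and none downward, against 11.1% and 5.4% of the 9015 measured genes. Not measured were Ifit3b, Oasl1, Oas2, Oas3, Mx1, Cmpk2 and Slfn1. Bst2 was at 454 and 965 CPM (ratio 2.13, 1.92 to 2.35) and Isg15 at 158 and 352 CPM (ratio 2.22, 1.87 to 2.64). Slfn5 was at 2.05 and 46.9 CPM, from 4 UMIs in 4 cells and 32 UMIs in 14 cells. Ifit3 was at 16.9 and 104 CPM, with all 71 KO UMIs in 10 cells, Herc6, which attaches Isg15 to proteins in mice, at 6.66 and 38.1 CPM, and Mx2 at 3.07 and 20.5 CPM. For Mx2, 10 of the 14 KO UMIs were in 1 cell, against 6 control UMIs in all, and without the highest cells the ratio was 3.82 (0.647 to 26.1).

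Depth and composition differed in the stroma-like class. The median cell had 24321.5 UMIs in the control and 8077 in the KO library. Endothelial markers summed to 5.63 and 305 CPM, macrophage markers to 724 and 1660 CPM and cycling markers to 1600 and 884 CPM, and 3 of 5 endothelial markers were at 0 in the control and none in the KO library. Their part in the result was not tested. Counting every cell alike brought the summed ratio to 1.59, the median log2 ratio to 0.35 and the count past 1.5-fold to 11, and at least 100 UMIs brought that count to 8.

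The response was uneven among cells. The 10% of cells with the most UMIs of the set held 44.4% of them in the control and 41.6% in the KO library. These shares are not scaled for depth, so deeper cells add to them. Per 10000 UMIs, cells at the lower and upper 10% marks had 3.9 and 55.2 UMIs of the set in the control. In the KO library they had 5.25 and 68.7. The median macrophage-like cell had 16.1 and 20.9 UMIs of the set per 10000, and the median CD8 T-like cell 7.46 and 8.82. To compare cells at 1 depth, each was thinned to 2000 UMIs and called rich with at least 5 UMIs of the set. Over all cells 33.3% (31.9 to 34.8) of control and 39.7% (38.4 to 41.1) of KO cells were rich. In macrophage-like cells the shares were 35.8% (33.5 to 38.2) and 46.7% (44.4 to 49.1), with 457 and 200 shallower cells left out, and 72.3% and 89.1% without thinning. Intermediate cells had 32.3% and 43.4%, with 130 and 126 left out. The difference in these classes was larger than counting error.

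In monocyte-like cells the shares of rich cells were 39.9% (34.0 to 46.0) and 46.2% (40.5 to 52.0), which overlap, although the shares with at least 10 UMIs of the set were 12.9% and 22.4%. Intervals overlapped in CD8 T-like (11.9% and 12.6%), Treg-like (39.2% and 41.4%), NK-like (28.9% and 34.2%), DC-like (39.0% and 42.9%) and other T-like cells (47.2% and 40.9%). CD8 T-like cells had the lowest share of these classes. Stroma-like cells were left out, since 43 KO cells remained after thinning.

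**Figure D4:**
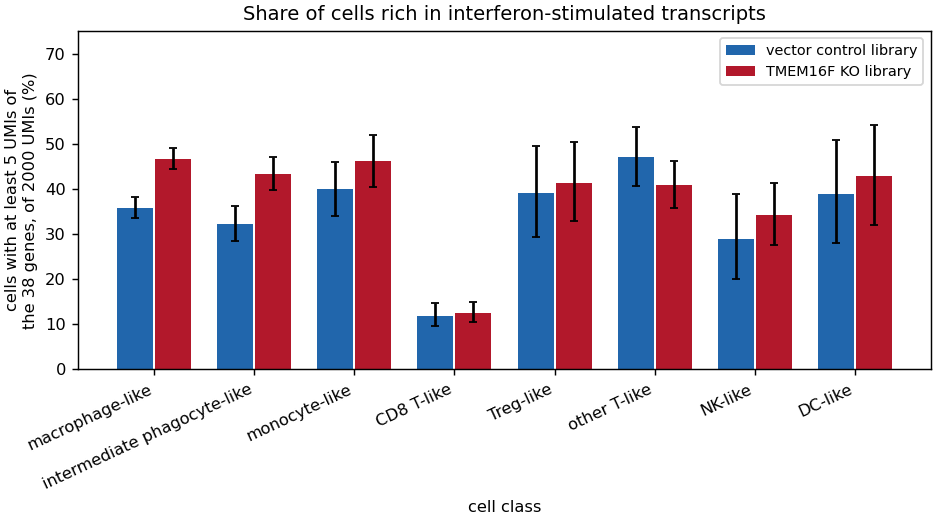
Percent of cells with at least 5 UMIs of the 38 genes after thinning every cell to 2000 UMIs, by class and library, with 95% Clopper-Pearson intervals of counting error. Macrophage-like cells (35.8% control, 46.7% KO) and intermediate cells (32.3%, 43.4%) have intervals that do not overlap.

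The same ratios were read in 18 clusters with at least 50 cells in each library; the 38 genes were not used to form clusters. The summed ratio was above 1 in 14 clusters and the median log2 ratio above 0 in 17. Among 10 phagocyte clusters the summed ratio was above 1 in 8 and ranged from 0.881 (0.835 to 0.929) in cluster 12 to 1.48 (1.44 to 1.52) in cluster 1. Cluster 4, the largest source of KO macrophage-like cells, had 2373 CPM in the control and 2251 CPM in the KO library (ratio 0.948, 0.921 to 0.976), and cluster 6 had a ratio of 1.01 (0.986 to 1.04). The difference was therefore not uniform over macrophage-like cells. Among 6 lymphocyte clusters 4 had a summed ratio above 1, and all 6 had a median log2 ratio above 0 and above that of all genes. Of the lymphocytes, other T-like cells fell mainly into cluster 8, with a ratio of 1.2 (1.14 to 1.25), and cluster 9, which also holds most Treg-like cells, with a ratio of 0.88 (0.839 to 0.923).

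**Figure D5:**
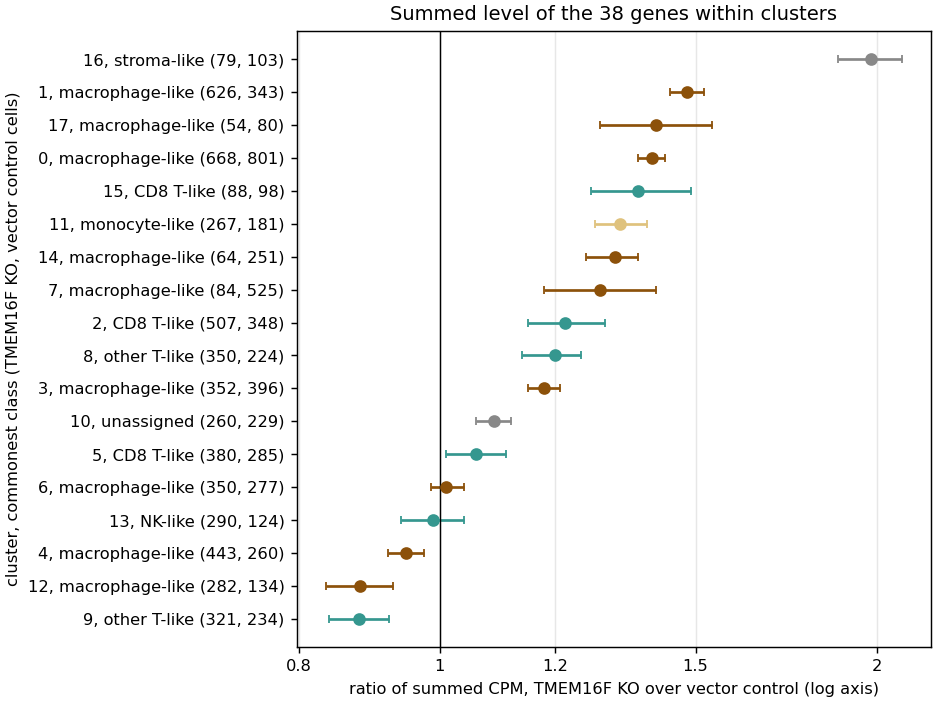
Summed ratio of the 38 genes, TMEM16F KO over vector control, in 18 clusters with at least 50 cells in each library, with 95% counting intervals, each cluster labelled by its commonest class. The stroma-like cluster 16 lies highest at 1.98, and 4 clusters lie below 1.

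Upstream genes of the pathway were read from a list of 21 ligands, receptors, kinases, factors and brakes. Of 20 measured over all cells, 16 were higher in the KO library, beside 53.0% of all measured genes. The median log2 ratio of the 20 was 0.23. The ligand went the other way: Ifnb1, interferon beta, was at 38.1 CPM in the control (1640 UMIs) and 15.2 CPM in the KO library (698 UMIs), a ratio of 0.399 (0.365 to 0.436). These UMIs lay in 422 control and 200 KO cells, and the 10 highest cells held 15.3% and 25.4% of them. In macrophage-like cells Ifnb1 was at 59.4 and 22.0 CPM (ratio 0.371, 0.333 to 0.413), seen in 294 and 124 cells. In DC-like cells 45 UMIs were found in 7 control cells, 21 of them in 1 cell, and 7 UMIs in 5 KO cells. In intermediate cells the ratio was 0.844 (0.66 to 1.08), and the 10 highest cells held 56.6% of the control and 72.9% of the KO UMIs. Ifna2 was low and also lower, at 2.28 and 1.02 CPM. Ifng, the type II ligand, was at 207 and 247 CPM (ratio 1.19). CD8 T-like cells held 6498 of its 8910 UMIs in the control and 7430 of 11312 in the KO library, and the Ifng ratio within them was 0.962 (0.931 to 0.995).

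Receptor and signalling genes were higher by small amounts over all cells. Ifnar1 was at 42.8 and 53.4 CPM (ratio 1.25), Ifnar2 at 117 and 138 CPM (ratio 1.18) and Jak1 at 155 and 204 CPM (ratio 1.32). Irf7, the factor that amplifies interferon production and is itself induced, was the list's only gene past 1.5-fold upward, at 51.1 and 78.2 CPM (ratio 1.53, 1.45 to 1.61). Socs1, an inhibitor of the kinases, was at 113 and 160 CPM (ratio 1.41), and in macrophage-like cells at 73.8 and 119 CPM (ratio 1.62). In the macrophage-like cells of the KO library, Ifnb1 was thus lower while Irf7 (80.5 against 53.4 CPM), Socs1 and 36 of the 38 genes were higher.

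Other lists gave a yardstick, beside 53.0% higher and a median log2 ratio of 0.02 for all measured genes over all cells. Of 37 measured genes on a list of further interferon-stimulated genes, 35 were higher over all cells, with a median log2 ratio of 0.32. Past 1.5-fold were 6 of them, where 5.49% of all measured genes were past this fold upward and 6.57% downward. Among the 6 was Slfn4 at 3.98 and 8.33 CPM, while Ifi27l2a was lower at 561 and 459 CPM. Of 15 genes induced mainly by interferon gamma, 13 were higher, with a median of 0.37, although Cxcl9 was lower, at 820 and 637 CPM. Dissociation stress genes had a median of 0.19, with 10 of 16 higher. The median of the 38 genes, 0.37, equalled that of the interferon gamma list. In NK-like cells 7 of 25 further interferon-stimulated genes were higher, with a median of -0.22, beside 54.8% and 0.06 over all measured genes. The weighting of cells, which turned the NK-like summed ratio of the 38 genes to 1.13, was not varied for this list.

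Ratios were also set beside the promoter search. In macrophage-like cells the median log2 ratio was 0.38 for 15 genes with a match and 0.40 for 14 without, and in intermediate cells it was 0.47 for both. In monocyte-like cells it was 0.39 for 14 genes with a match, Ifit3 (2.12) highest, and 0.68 for 14 without, Ifi44 (2.42) highest. Of the interferon gamma list, 9 of 10 genes with an entry held a match, and of the further interferon-stimulated genes 16 of 34 (47.1%).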

How the data were processed

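Each library is a deposited matrix of UMI counts, whole numbers that were not normalised, with genes as rows and barcodes as columns, and the file headers name Cell Ranger 8.0.0. The submitters' processing notes list mm10 as the build and Seurat 3.1.1 as a tool. Gene annotation, strand setting and number of mice were not given in the sources used here.

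Barcodes were kept at 200 genes or more and below 20% of UMIs from mitochondrial genes. Scrublet's automatic threshold marked 0 barcodes in both libraries, so the highest scores were left out at 0.8% per 1000 barcodes (221 in the vector control and 287 in the TMEM16F KO library). Each cell was assigned from marker UMIs scaled to its own depth. A lineage needed a score of 0.25 and a lead of 0.1 over the next one. Phagocytes were divided by the macrophage score minus the monocyte score, at 0.2 and at -0.1. The 38 genes are not markers and were kept out of the 2000 variable genes used for Leiden clusters (30 components, 15 neighbours, resolution 1, seed 1).

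UMIs were summed over the cells of a class and divided by the class total (counts per 1000000 UMIs, CPM). Ratios carry 95% exact conditional binomial intervals, levels exact Poisson intervals and shares exact Clopper-Pearson intervals. All of them cover counting error only. A gene counted as measured with at least 20 UMIs in a class, and 9 classes, with 50 or more cells in both libraries, were compared. The ratio script was checked on simulated counts that held counting error only. Such counts have no clustering of UMIs in cells, so the check cannot show whether the intervals are wide enough for these data. With 1 library per group there was no test across samples.

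The genes named with values are the 8 with the highest CPM, the 4 largest and 4 smallest ratios per class whose interval leaves out 1, those past 1.5-fold in at least 3 classes, and those not measured. The 38 genes and the other lists were chosen with earlier results of these data known. Alternatives concerned the total, the weighting of cells, doublets, classes, depth and the UMI minimum. Tools were matplotlib 3.10.9, leidenalg 0.10.2 with igraph 0.11.9, scipy 1.17.1, numpy 2.4.6, scanpy 1.11.5 with anndata 0.12.19, scikit-learn 1.9.0 and pandas 2.3.3, under Python 3.11.15.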

Additional observations from a re-analysis of the deposited data

How the results depend on the processing

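Counting intervals do not cover differences between tumours, and with 1 library per condition no replicate could be left out. No paired analysis was possible because each condition has 1 library. Of 88 recomputed median log2 ratios of the 38 genes, 79 stayed in the main median's interval, taken from the ranked gene ratios. The main value's interval held 44 of 68 summed ratios, 366 of 408 single-gene ratios and 23 of 33 ratios of shares of rich cells. Of counts past 1.5-fold, 72 of 88 upward and 72 of 88 downward were equal to the main count or within 1.5-fold of it. The matching share of all genes was not computed under the alternatives, so their counts have no background. Where few UMIs make an interval wide, a large move can stay inside it. The median stayed above 0 under every alternative run in all cells, the 3 phagocyte classes, CD8 T-like, DC-like and stroma-like cells, and under 5 of 9 in NK-like cells. Downward counts went from 2 to 1 (CD8 T-like) and to 4 or 1 (NK-like), from 3 to 0 (other T-like, classes from clusters), and from 0 to at most 3 (Treg-like, stroma-like) or 1 (macrophage-like, DC-like). Leaving out the low-UMI cluster, or the highest cell of each library, was added after seeing the data.

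Counting every cell alike turned Ifih1 over all cells to 1.066, Ifit1 in CD8 T-like to 1.073 and Isg15 in NK-like cells to 1.113. It gave medians of 0.1549 (NK-like), 0.3947 (intermediate), 0.5175 (macrophage-like) and 0.3475 (stroma-like), counts past 1.5-fold of 5 (CD8 T-like), 7 (DC-like), 2 (NK-like), 14 (macrophage-like) and 11 (stroma-like), and sums of 1.08, 1.379, 1.13, 1.213, 1.358, 1.285 and 1.589 (CD8 T-like, DC-like, NK-like, all, intermediate, macrophage-like, stroma-like). Classes from clusters turned other T-like cells to a sum of 1.195, Ifit1 to 1.049 and Isg15 to 1.125 there. They gave medians of 0.6035 (intermediate) and 0.2802 (other T-like), counts of 20 (intermediate) and 3 (macrophage-like), shares of rich cells in a ratio of 1.19 (macrophage-like) and 1.07 (other T-like), and sums of 0.8801 (Treg-like), 1.478 (intermediate), 1.112 (macrophage-like) and 1.976 (stroma-like). A stricter lead turned Ifit1 in CD8 T-like cells to 1.088 and gave medians of -0.0978 (NK-like) and 0.2123 (other T-like), counts of 6 (DC-like) and 0 (Treg-like) and sums of 1.29 (DC-like), 0.8766 (NK-like) and 0.9406 (other T-like). With no doublets left out, Ifih1 in CD8 T-like cells turned to 1.102, NK-like cells had a count of 0 and a sum of 0.8648, and stroma-like cells a sum of 1.967. With at least 100 UMIs the Treg-like median was -0.3188, and counts were 1 (DC-like), 0 (Treg-like), 13 (monocyte-like) and 8 (stroma-like). This minimum leaves genes out and does not change the ratio of any gene. With no minimum beyond 1 UMI the NK-like count was 2. Dividing by the median ratio of all genes gave sums of 1.213 (all), 1.348 (intermediate) and 1.435 (monocyte-like). Leaving mitochondrial, ribosomal protein and haemoglobin genes out of the total gave a macrophage-like count of 3 and sums of 1.119 (CD8 T-like), 1.191 (all), 1.356 (intermediate) and 1.146 (macrophage-like). The ratio of rich shares was 1.99 (DC-like), 1.29 (all), 1.61 (intermediate) and 1.74 (monocyte-like) with at least 10 UMIs, 1.12 (all) and 1.15 (macrophage-like) with at least 3, and 1.1 (all) and 1.12 (intermediate) unthinned. The cause was not tested.

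Not run, with fewer than 50 cells left in a library, were monocyte-like and DC-like classes from clusters, and stroma-like cells with only cells of at least 2000 UMIs or with the stricter lead.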
